A study of Mus musculus with 21 samples.

Results

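DNA damage response and repair genes were followed through 2 mouse mammary cancer cell lines, grown in culture and as tumours. The list held 43 genes that signal DNA damage or carry out homologous recombination, Fanconi crosslink repair, end joining, mismatch repair or excision repair. Of these, 40 had a probe set assigned to that gene symbol alone, among 22180 genes measured in this way, and where a gene had several such probe sets the brightest over the 21 arrays was taken. Fanca and Apex1 were covered only by probe sets shared with another gene and Xrcc2 was not listed in the probe annotation, so these 3 genes have no value here. H2afx is given under its current symbol, H2ax.

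The lines, Py8119 and Py117, are clones from MMTV-PyMT transgenic mice, in which a mammary tumour virus promoter drives the polyoma middle T oncogene, so each line stands for a single clone. The series describes Py117 tumours as sensitive to radiation and Py8119 tumours as resistant. The samples fell into 5 groups: tumours grown from Py117 and Py8119 cells mixed in equal parts (mixed tumours, n = 5), Py8119 tumours (n = 5), Py117 tumours (n = 5), Py8119 cultures (n = 3) and Py117 cultures (n = 3). For each tumour 1000000 cells were placed in mammary fat pad 4 in 50% matrigel, and tumours were taken on the day on which radiotherapy would have been given. No sample was irradiated or otherwise treated, so the values describe repair gene RNA at rest and not a response to damage. Cultures were grown in F12K medium with 5% serum.

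Cells mend broken DNA by several routes. In homologous recombination, a break is trimmed to single strands and copied from the sister chromatid, which confines the route to cells that have replicated their DNA, and many of its genes are transcribed most in cycling cells under E2F factors. Classical end joining seals a break without a template and is open throughout the cell cycle, and the Fanconi proteins unhook crosslinks during replication. Single-base damage, bulky lesions and mispaired bases are removed by base excision, nucleotide excision and mismatch repair.

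The arrays gave log2 signals, which are compared below within a gene and never between genes. A gene was called where the p of limma's moderated test, adjusted by Benjamini and Hochberg's method across 22180 genes, was under 0.05. Olfactory and vomeronasal receptor genes (1390) served as a measure of background signal, and every repair gene of the list averaged more in each group than 95% of them (5.31). Array medians lay between 5.24 and 5.53, and arrays of a group correlated at 0.969 to 0.994 over all genes. The mammary epithelial origin showed in the markers of Py117 more than of Py8119: 7 of 11 epithelial markers had a mean under background in Py8119 tumours and in Py8119 cultures, against 0 of 11 in Py117 tumours and 1 of 11 in Py117 cultures.

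Across the 21 arrays, the repair genes were highest in Py8119 cultures and lowest in Py117 tumours. After each gene was centred on its mean over all arrays, the 40 genes averaged 0.57, 0.59 and 0.57 log2 units in Py8119 cultures and 0.23, 0.28 and 0.18 in Py117 cultures. They averaged -0.04, -0.05, -0.14, 0.01 and 0.07 in mixed tumours, -0.03, -0.09, -0.03, 0.10 and -0.07 in Py8119 tumours and -0.36, -0.48, -0.77, -0.15 and -0.41 in Py117 tumours. Both sets of cultures stood above all tumours, and Py117 tumours stood below the others, with the highest of them (tumour 4) level with the lowest mixed tumour (tumour 3).

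**Figure D1:**
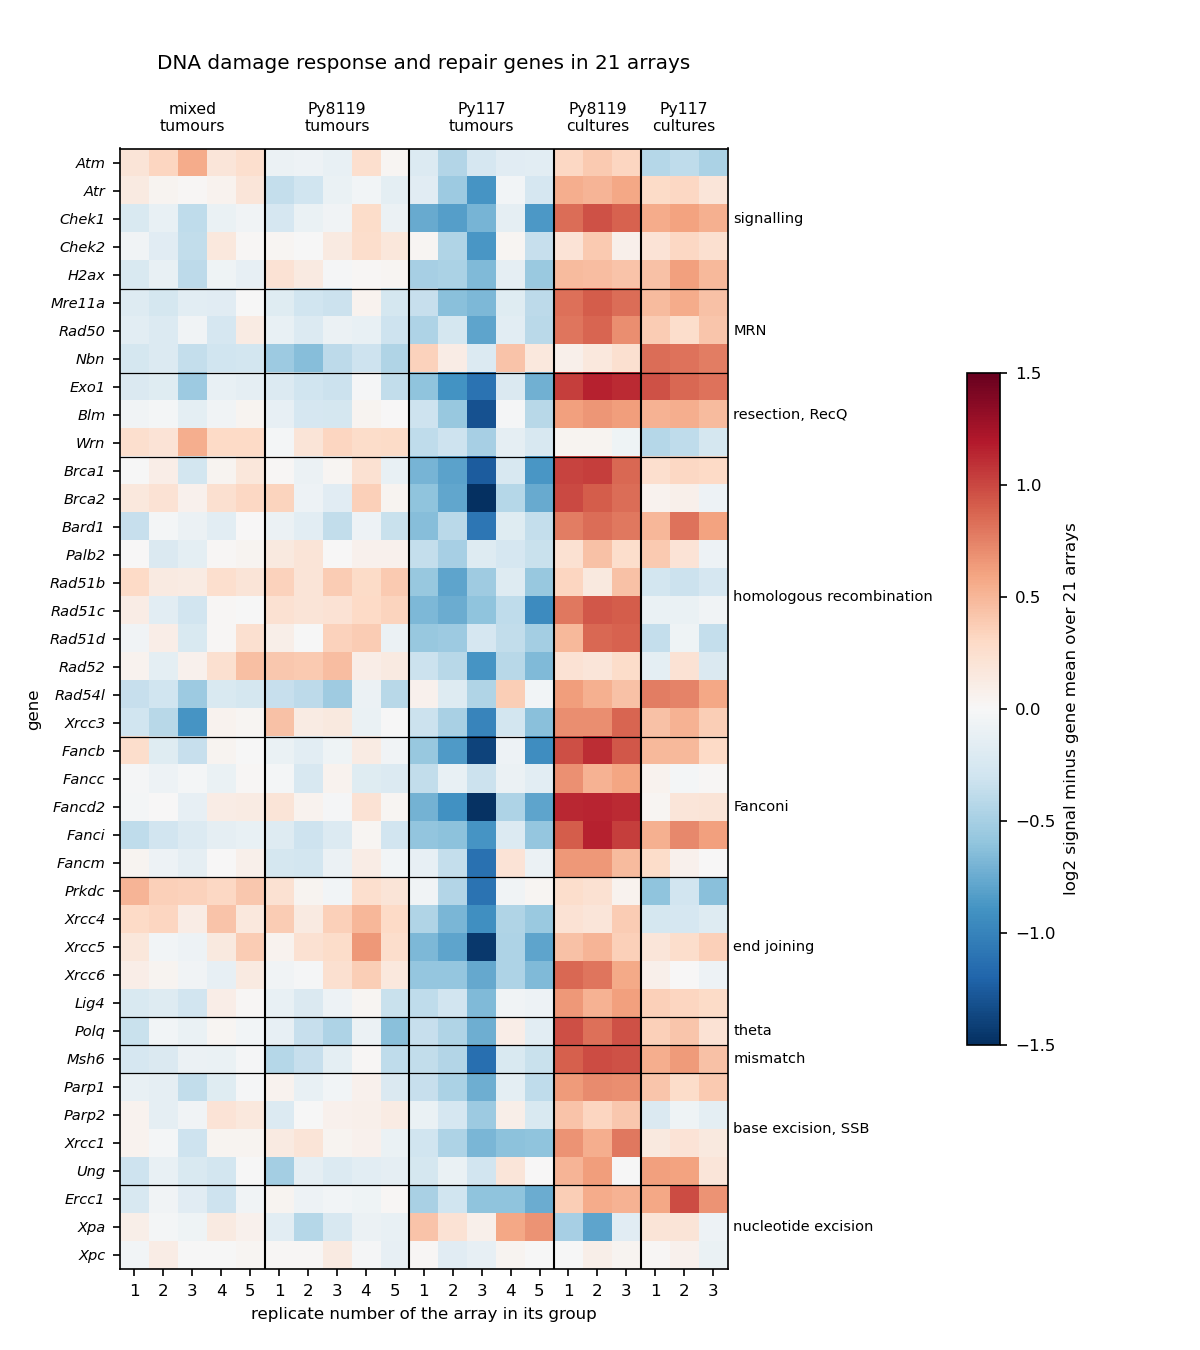
Each row is a gene and each column an array, with mixed, Py8119 and Py117 tumours left of Py8119 and Py117 cultures; colour gives the log2 signal minus the gene's mean over the 21 arrays. Py117 tumour 3 is the bluest column, with the lowest of the 5 Py117 tumour values for 31 of the 40 genes.

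Py117 tumours also varied most. The median SD of the 40 genes was 0.129 in mixed tumours, 0.135 in Py8119 tumours and 0.246 in Py117 tumours, while over all genes it was 0.151, 0.150 and 0.205. Py117 tumour 3 was lowest of its group for 31 of 40 genes and tumour 4 was highest for 30. In the other tumour groups, mixed tumour 3 was lowest for 23 genes and Py8119 tumour 4 highest for 26.

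Genes of cell division varied the same way. A list of 34 cell cycle genes, among them Mki67, Top2a and the Mcm helicase genes, had a mean log2 signal of 8.75 to 8.98 in mixed tumours, 8.89 to 9.10 in Py8119 tumours and 8.10 to 8.68 in Py117 tumours. It was 9.89 to 9.95 in Py8119 cultures and 9.55 to 9.59 in Py117 cultures. Cultures were again above tumours and Py117 tumours lowest, and tumours 3 and 4 were the lowest and highest Py117 tumours on both lists (-0.93 and -0.36 for the centred cell cycle mean).

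**Figure D2:**
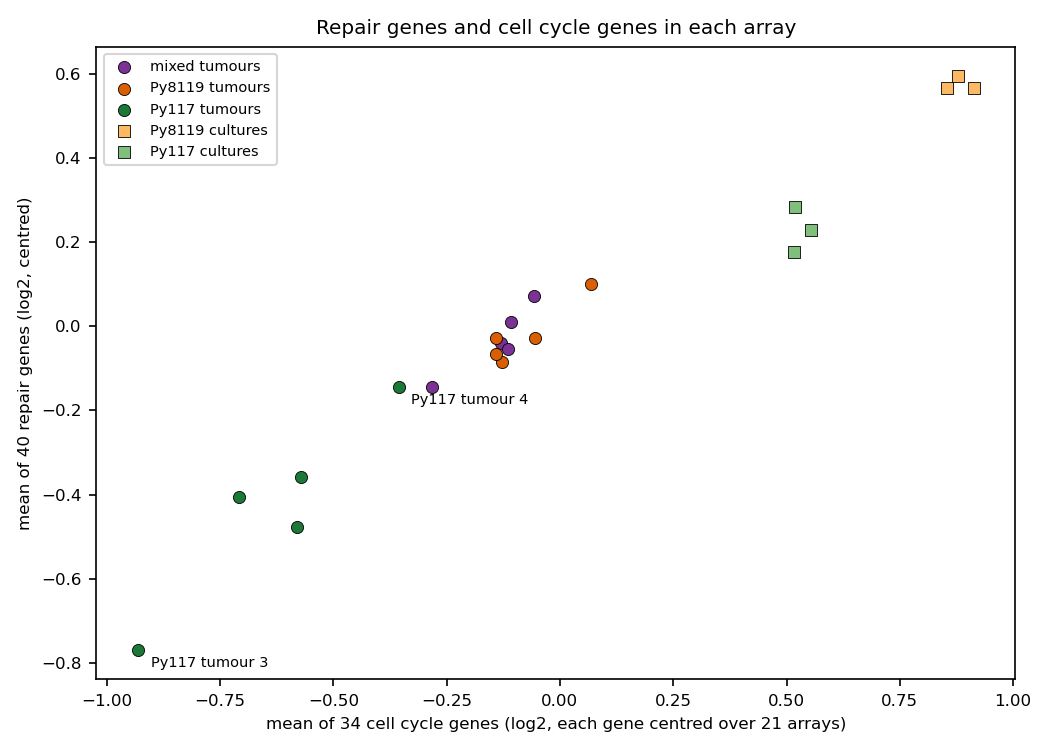
Each point is an array, with the mean of 34 cell cycle genes on the horizontal axis and the mean of the 40 repair genes on the vertical axis, both in log2 units after centring each gene over the 21 arrays; circles are tumours and squares cultures. Py8119 cultures lie at the top right (repair mean 0.57 to 0.59) and Py117 tumour 3 at the bottom left (-0.77).

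Many of these genes carry E2F sequences at their starts. RefSeq promoter windows (GRCm38.p6, 250 bases before to 50 bases after the start) were found for 31 of the 40 genes, 35 windows in all. They were searched on both strands for the E2F 7-mers TTCCCGC or TTCGCGC or TTGCCGC or TTGGCGC, for the NF-Y box (CCAAT), and for a promoter element of late cell cycle genes (letters TTTGAA). An E2F 7-mer was present in 57.1% of the members' windows, against 9.57% of 32851 mouse promoters searched in the same way. CCAAT was present in 54.3% against 37.4%, and TTTGAA in 8.57% against 17.9%. The 32851 promoters were not matched to the members' windows in base composition or in level of expression.

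Of the 20 genes with a window that were lower in tumours than in cultures of both lines, 13 held an E2F 7-mer, and of the other 11 genes 5 did. Windows of 5 genes are shown because the results below turn on them. Brca2, Rad51c and Polq were higher in Py8119 cultures, and Ercc1 had a larger tumour deficit in Py117. Xpa, lower in Py8119, had no E2F 7-mer. The 5 do not stand for the list by direction. Xrcc1, Rad51b and Parp1, higher in Py8119 in both settings, and Xrcc5, higher in tumours, also had no E2F 7-mer. The sequences run 5′ to 3′ on the gene's strand, with the E2F 7-mers of either strand in capitals, and for Rad51c the upstream of its RefSeq windows is given. Such a match describes letters and is not a test of binding.
Brca2, chr5:150522371-150522670, plus strand: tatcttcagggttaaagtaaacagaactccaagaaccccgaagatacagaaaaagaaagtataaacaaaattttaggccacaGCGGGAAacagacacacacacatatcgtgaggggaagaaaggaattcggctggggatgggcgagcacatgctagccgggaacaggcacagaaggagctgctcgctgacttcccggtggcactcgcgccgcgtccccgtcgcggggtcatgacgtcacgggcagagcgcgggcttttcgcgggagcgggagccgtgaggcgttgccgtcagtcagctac
Rad51c, chr11:87404905-87405204, minus strand: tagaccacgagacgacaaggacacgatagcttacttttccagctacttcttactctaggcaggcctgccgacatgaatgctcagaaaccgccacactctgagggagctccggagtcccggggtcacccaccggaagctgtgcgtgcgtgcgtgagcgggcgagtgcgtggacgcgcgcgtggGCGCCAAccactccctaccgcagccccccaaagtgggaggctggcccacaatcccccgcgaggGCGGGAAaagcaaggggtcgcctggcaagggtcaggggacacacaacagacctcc
Polq, chr16:37011536-37011835, plus strand: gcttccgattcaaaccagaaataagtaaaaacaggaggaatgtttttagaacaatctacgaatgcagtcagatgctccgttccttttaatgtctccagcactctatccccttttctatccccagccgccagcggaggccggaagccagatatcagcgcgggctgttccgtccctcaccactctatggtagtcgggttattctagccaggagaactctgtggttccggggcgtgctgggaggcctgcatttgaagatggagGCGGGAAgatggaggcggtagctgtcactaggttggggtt
Ercc1, chr7:19344821-19345120, plus strand: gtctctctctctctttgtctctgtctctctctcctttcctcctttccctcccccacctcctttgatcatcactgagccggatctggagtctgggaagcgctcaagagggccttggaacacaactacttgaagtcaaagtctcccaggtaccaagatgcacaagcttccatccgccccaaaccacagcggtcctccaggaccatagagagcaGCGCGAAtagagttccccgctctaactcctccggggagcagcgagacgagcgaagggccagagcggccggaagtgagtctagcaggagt
Xpa, chr4:46196262-46196561, minus strand: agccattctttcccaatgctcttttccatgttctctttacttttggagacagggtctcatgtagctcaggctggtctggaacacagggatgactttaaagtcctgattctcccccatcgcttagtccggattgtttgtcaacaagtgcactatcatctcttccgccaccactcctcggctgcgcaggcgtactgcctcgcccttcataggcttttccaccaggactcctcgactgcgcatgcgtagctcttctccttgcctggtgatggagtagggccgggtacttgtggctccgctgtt

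The first comparison asked how the lines differ with no host tissue present. In culture, 23 of the 40 repair genes were higher in Py8119 than in Py117 and 2 were lower, with a median difference of 0.37 log2 units. Over all genes 14.5% were called higher and 12.3% lower, with a median of -0.01. Nearly all of the repair genes were brighter than the median gene. Among the 11090 genes at or above the median level, 22 of 39 repair genes were called higher and 2 lower, against 25.5% and 18.8% of those genes. The 3 Py8119 values did not overlap the 3 Py117 values for 28 genes on the higher side and 3 on the lower, where 21.8% and 20.2% of all genes were so placed.

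Homologous recombination genes gave 5 calls, all higher, of 10 measured. Rad51d, a paralog of the recombinase that helps it load on single-stranded DNA, had 7.82, 8.19 and 8.22 in Py8119 cultures, against 6.98, 7.27 and 6.98 in Py117 cultures (difference 1.00 ± 0.15 log2 units, SE, limma adjusted p = 0.00237). Rad51c, a paralog found in the complexes that mature recombination intermediates, had 7.74, 7.88 and 7.86 in Py8119 cultures, against 6.85, 6.85 and 6.90 in Py117 cultures (1.94-fold, 0.96 ± 0.09, limma adjusted p = 0.000283). Brca2, which hands the recombinase onto the resected strand, had 8.46, 8.38 and 8.30 in Py8119 cultures, against 7.53, 7.55 and 7.39 in Py117 cultures (1.85-fold, 0.89 ± 0.10, limma adjusted p = 0.000577). For all 3 genes each Py8119 culture lay above each Py117 culture. Brca1, the ubiquitin ligase that promotes resection, and Rad51b were higher by 0.69 and 0.58, whereas its partner Bard1 (0.16), the linker Palb2 (0.13), the annealing factor Rad52 (0.28), the paralog Xrcc3 (0.31) and the translocase Rad54l (-0.16) did not pass the test.

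All 5 Fanconi genes were higher in Py8119 cultures, with a median of 0.58. Fancd2, the clamp protein whose ubiquitination switches the pathway on, had 9.16, 9.17 and 9.15 in Py8119 cultures, against 8.06, 8.21 and 8.23 in Py117 cultures (1.99-fold, 0.99 ± 0.09, limma adjusted p = 0.000264). The groups were apart by far more than the spread within either. Its partner Fanci differed by 0.41, the core complex subunits Fancb and Fancc by 0.58 each and the translocase Fancm by 0.48.

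Among damage signalling genes, Atm, the kinase that responds to double-strand breaks, stood out. It had 8.49, 8.56 and 8.49 in Py8119 cultures, against 7.75, 7.79 and 7.70 in Py117 cultures (1.70-fold, 0.77 ± 0.09, limma adjusted p = 0.000684), with no overlap. The replication checkpoint kinase Chek1 was higher by 0.33, and Atr (0.29), the kinase of stalled forks, Chek2 (-0.03) and the histone variant H2ax (-0.06) did not pass the test. A second and dimmer probe set of Atr, with a mean of 5.04 near background, gave -0.05, so this gene's value depends on the probe set.

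The 3 subunits of the complex that senses and tethers broken ends went different ways. Mre11a, its nuclease, and Rad50, its ATPase, were higher in Py8119 cultures by 0.37 and 0.44, while the regulatory subunit Nbn was lower. Nbn had 8.17, 8.25 and 8.33 in Py8119 cultures, against 8.94, 8.91 and 8.86 in Py117 cultures (1.57-fold lower, -0.65 ± 0.09, limma adjusted p = 0.00186). The 2 groups did not overlap.

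Of the end joining genes, Prkdc, the kinase DNA-PKcs, was higher by 0.69, the Ku subunit gene Xrcc6 by 0.74 and the ligase scaffold Xrcc4 by 0.50. The other Ku subunit, Xrcc5 (0.16), and the ligase Lig4 (0.27) did not pass the test. Polq, the polymerase of the alternative route that joins ends at short homologies, had 7.61, 7.47 and 7.60 in Py8119 cultures, against 6.996, 7.06 and 6.86 in Py117 cultures (0.59 ± 0.10, limma adjusted p = 0.0045). Every Py8119 culture was above every Py117 culture.

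Genes of the remaining routes differed as well. The mismatch sensor Msh6 had 8.36, 8.45 and 8.43 in Py8119 cultures, against 8.01, 8.11 and 7.91 in Py117 cultures (0.40 ± 0.10, limma adjusted p = 0.0185). Xrcc1, the scaffold of single-strand break repair, had 8.59, 8.46 and 8.70 in Py8119 cultures, against 8.05, 8.12 and 8.06 in Py117 cultures (0.51 ± 0.10, limma adjusted p = 0.00822). For both genes the groups did not overlap. The break sensors Parp1 and Parp2 were higher by 0.32 and 0.53, and the uracil glycosylase Ung (-0.09) was not called.

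Wrn, a RecQ helicase, had 8.30, 8.30 and 8.21 in Py8119 cultures, against 7.84, 7.89 and 8.004 in Py117 cultures (0.36 ± 0.09, limma adjusted p = 0.0264), while the nuclease Exo1 (0.23) and the helicase Blm (0.12) were not called. Xpa, the scaffold of nucleotide excision, had 6.50, 6.22 and 6.83 in Py8119 cultures, against 7.20, 7.19 and 6.93 in Py117 cultures (-0.59 ± 0.17, limma adjusted p = 0.0406). Wrn and Xpa values of the 2 lines did not overlap, although for Xpa the gap between the nearest cultures was narrow. The nuclease subunit Ercc1 (-0.26), which is not the catalytic one, and the lesion sensor Xpc (0.04) were not called.

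The cell cycle list moved in the same direction, with 18 of 34 genes higher and 1 lower in Py8119 cultures and a median of 0.35, and its part in the repair differences was not tested. With 3 cultures a line the weaker calls did not survive smaller sets: leaving out 1 array gave 17 to 20 genes higher, Chek1 and Parp1 lost their call in all 6 such fits (adjusted p up to 0.0946 and 0.0931), Xpa in 5 (up to 0.129), and Fanci, Fancm, Mre11a, Msh6 and Wrn in 3 or 4.

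**Figure D3:**
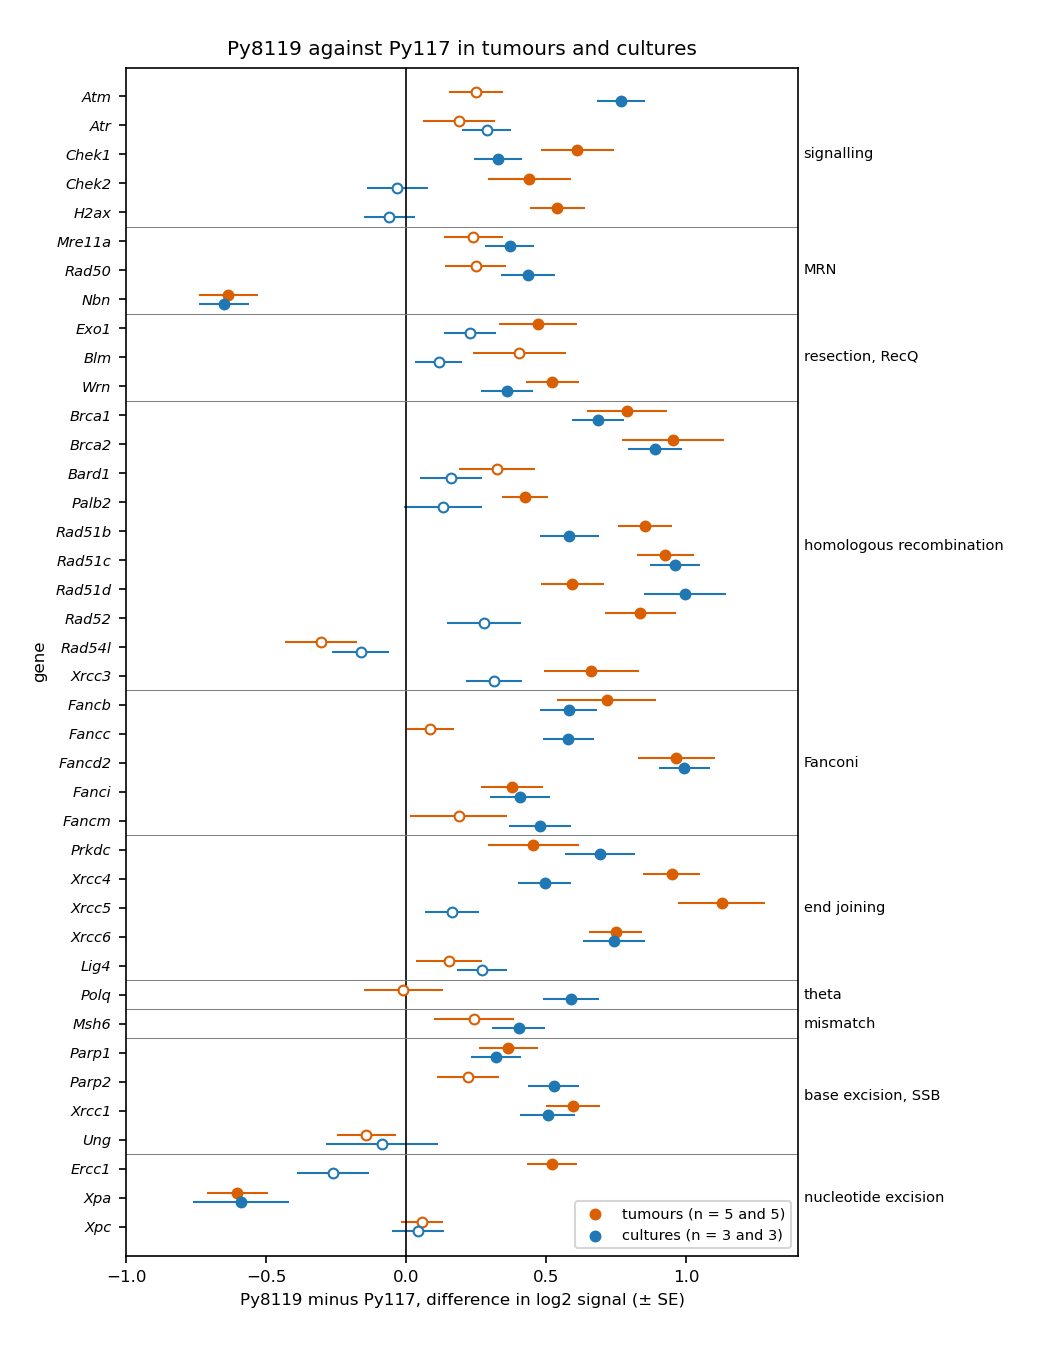
For each repair gene, grouped by route, the difference in log2 signal of Py8119 minus Py117 is shown with its SE in tumours (orange, 5 and 5 arrays) and in cultures (blue, 3 and 3 arrays); filled points were called and open points were not. Most points lie right of 0, and Nbn and Xpa lie left of it in both settings.

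The second comparison asked how tumours of the 2 lines differ. In tumours, 23 repair genes were again higher in Py8119 than in Py117 and 2 were lower, with a median difference of 0.43, against 21% and 16.5% of all genes and a median of 0.01. Among the brighter 11090 genes, 23 of 39 repair genes were called higher and 2 lower, against 36.7% and 22.6% of those genes. The 5 Py8119 and 5 Py117 values did not overlap for 17 genes on the higher and 2 on the lower side, where 15.7% and 11.9% of all genes were so placed. In bulk tissue, fewer cells of a type and less RNA in each cell cannot be told apart.

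Of the repair genes, 15 were higher in Py8119 in both settings, where 10.4% of all genes were, among them Brca1, Brca2, Rad51b, Rad51c, Rad51d, Fancb, Fancd2, Fanci, Prkdc, Xrcc4 and Xrcc6. Chek1 and Parp1 are also among the 15, with the culture calls that were lost without any 1 array. Nbn and Xpa were lower in both, as were 7.49% of all genes. Another 8 (Atm, Mre11a, Rad50, Fancc, Fancm, Polq, Msh6 and Parp2) were called higher in culture and not called in tumours, against 3.71% of all genes. A further 8 (Chek2, H2ax, Exo1, Palb2, Rad52, Xrcc3, Xrcc5 and Ercc1) were called higher in tumours and not called in culture, against 9.83%. The other 7 were called in neither setting, and none was called in opposite directions. Whether a difference between settings was itself beyond error was tested by the interaction described further on.

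End joining held the largest tumour difference of the list. Xrcc5, which encodes the larger Ku subunit that caps broken ends, had 8.69, 8.86, 8.90, 9.29 and 8.89 in Py8119 tumours, against 7.96, 7.84, 7.19, 8.17 and 7.85 in Py117 tumours (2.18-fold, 1.13 ± 0.15, limma adjusted p = 1.15e-05). The groups were well apart, and the lowest value was that of Py117 tumour 3. Xrcc4 was higher by 0.95, Xrcc6 by 0.75 and Prkdc by 0.45, and Lig4 (0.15) was not called, so 4 of 5 genes were higher with a median of 0.75.

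In homologous recombination, 8 of 10 genes were higher in Py8119 tumours, with a median of 0.73. Brca2 had 7.80, 7.39, 7.29, 7.83 and 7.51 in Py8119 tumours, against 6.87, 6.69, 5.75, 7.04 and 6.71 in Py117 tumours (1.94-fold, 0.95 ± 0.18, limma adjusted p = 0.000362). Rad51c had 7.18, 7.14, 7.17, 7.24 and 7.28 in Py8119 tumours, against 6.27, 6.20, 6.35, 6.56 and 6.01 in Py117 tumours (1.90-fold, 0.93 ± 0.10, limma adjusted p = 8.23e-07). Neither gene overlapped between the lines, and Brca2 spread more widely in Py117 tumours, where tumour 3 lay far below the rest.

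Rad51d had 7.42, 7.33, 7.69, 7.72 and 7.25 in Py8119 tumours, against 6.76, 6.79, 7.09, 6.97 and 6.83 in Py117 tumours (0.59 ± 0.11, limma adjusted p = 0.000321). Here too each Py8119 tumour was above each Py117 tumour. Rad51b was higher by 0.85, Rad52 by 0.84, Brca1 by 0.79, Xrcc3 by 0.66 and Palb2 by 0.43. Bard1 (0.32) and Rad54l (-0.30) were not called.

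Of the Fanconi genes, 3 of 5 were higher in Py8119 tumours. Fancd2 had 8.22, 8.09, 8.01, 8.24 and 8.06 in Py8119 tumours, against 7.32, 7.12, 6.55, 7.57 and 7.24 in Py117 tumours (1.95-fold, 0.96 ± 0.14, limma adjusted p = 1.76e-05), with no overlap. Fancb was higher by 0.72 and Fanci by 0.38, and Fancm (0.19) and Fancc (0.09) were not called. Polq did not differ by more than its error between the lines in tumours (-0.01 ± 0.14), and its 5 values per group overlapped.

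In damage signalling, Chek1 was higher by 0.61, H2ax by 0.54 and Chek2 by 0.44 in Py8119 tumours, while Atm (0.25, limma adjusted p = 0.0506) and Atr (0.19) were not called. The dimmer Atr probe set gave 0.64 and would have been called (limma adjusted p = 0.00268). Wrn had 8.24, 8.46, 8.59, 8.54 and 8.55 in Py8119 tumours, against 7.88, 7.95, 7.77, 8.13 and 8.03 in Py117 tumours (0.52 ± 0.09, limma adjusted p = 0.000206), without overlap. Exo1 was higher by 0.47 and Blm (0.40) was not called.

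Nbn was lower in Py8119 tumours, with 7.55, 7.46, 7.71, 7.79 and 7.64, against 8.44, 8.21, 7.89, 8.53 and 8.26 in Py117 tumours (1.55-fold lower, -0.63 ± 0.11, limma adjusted p = 9.71e-05). Xpa was lower too, with 6.85, 6.58, 6.76, 6.91 and 6.89 in Py8119 tumours, against 7.44, 7.22, 7.08, 7.58 and 7.68 in Py117 tumours (1.52-fold lower, -0.60 ± 0.11, limma adjusted p = 0.0002). No Py8119 tumour reached a Py117 tumour for either gene, as in culture. The partners of Nbn, Mre11a (0.24) and Rad50 (0.25), were not called.

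Among excision genes, Xrcc1 had 8.04, 8.10, 7.95, 7.98 and 7.81 in Py8119 tumours, against 7.61, 7.45, 7.22, 7.30 and 7.31 in Py117 tumours (0.60 ± 0.10, limma adjusted p = 7.07e-05). Ercc1 had 7.70, 7.58, 7.61, 7.60 and 7.67 in Py8119 tumours, against 7.17, 7.36, 7.06, 7.05 and 6.91 in Py117 tumours (1.44-fold, 0.52 ± 0.09, limma adjusted p = 0.000109). Each Py8119 tumour exceeded each Py117 tumour for both genes. Parp1 was higher by 0.37, and Parp2 (0.22), Ung (-0.14), Xpc (0.06) and Msh6 (0.24) were not called.

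Cell cycle genes moved with these differences: 26 of 34 were higher in Py8119 tumours and 0 lower, with a median of 0.55, and the lists' means did not overlap between the lines (8.89 to 9.10 against 8.10 to 8.68). When the cell cycle mean was added to the fit, 3 repair genes were called higher (Rad51b 0.65, Rad51c 0.65 and Xrcc4 0.50) and 5 lower (Nbn -1.16, Rad54l -1.07, Xpa -0.97, Fancm -0.81 and Polq -0.69), against 7.34% and 12.1% of all genes, and the repair genes' median was -0.19. Standard errors over the repair genes were 0.135 to 0.283 in that fit and 0.0763 to 0.183 without the term, and since the cell cycle means of the lines do not overlap, division and line cannot be fully told apart.

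Markers of host cells differed as well. All 11 endothelial, 9 T cell and 9 fibroblast markers measured and 7 of 8 adipocyte markers were lower in Py8119 tumours, and 8 of 11 macrophage markers were higher and 1 lower. The mean fibroblast signal was 7.83 to 8.88 in Py8119 tumours and 9.46 to 10.6 in Py117 tumours, the endothelial mean 6.48 to 6.87 and 7.63 to 8.34, the T cell mean 5.60 to 5.85 and 6.44 to 7.67, the adipocyte mean 5.65 to 6.48 and 5.95 to 8.70 and the macrophage mean 10.1 to 10.5 and 9.47 to 9.95. In Py8119 tumours 1 T cell marker and 2 adipocyte markers had a mean under background, against none of either in Py117 tumours; 2 of 4 B cell markers did in each. The part of host cells in the repair differences was not tested. Leaving out 1 array gave 21 to 28 repair genes higher, and Chek2 and Prkdc lost their call in some of these fits (adjusted p up to 0.0595 and 0.0751).

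Mixed tumours were set against each parent next, to place a tumour grown from both lines. The cells were mixed in equal parts, and the share of each line in the grown tumours was not measured here. The epithelial marker mean was 6.66 to 7.05 in mixed, 5.91 to 6.05 in Py8119 and 8.05 to 8.68 in Py117 tumours. The mean of 8 mesenchymal markers was 10.89 to 10.96, 11.01 to 11.10 and 9.12 to 9.61 in the same order. The part of line share in the repair differences was not tested. Against Py117 tumours, 26 repair genes were higher in mixed tumours and 2 lower, with a median of 0.40 (all genes: 19.2% higher, 16.9% lower and a median of -0.03). Among the brighter 11090 genes, 26 of 39 repair genes were called higher and 2 lower, against 33.9% and 20.4% of those genes. Against Py8119 tumours, limma called 0 of 40 in either direction, where 1.61% of all genes were higher and 0.162% lower. At an unadjusted p under 0.05, 3 were higher and 3 lower. The share of all genes at that threshold is not given here, so these counts are not read as a difference. Differences from Py8119 tumours ran from -0.42 to 0.30 with a median of 0.01 and standard errors of 0.0763 to 0.183, so single genes may still differ by amounts of that size. The mixed tumours did not overlap Py117 tumours for 13 genes, all higher, where 14% of all genes were so placed on the higher and 10.8% on the lower side. They did not overlap Py8119 tumours for 3 genes on the higher and 2 on the lower side, against 3.85% and 1.69% of all genes.

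Brca2 had 7.63, 7.68, 7.54, 7.70 and 7.78 in mixed tumours, against the Py117 tumour values given above (2.08-fold, 1.06 ± 0.18, limma adjusted p = 0.000171). Xrcc5 had 8.80, 8.59, 8.55, 8.77 and 9.01 in mixed tumours (1.93-fold over Py117 tumours, 0.95 ± 0.15, limma adjusted p = 9.52e-05). For both genes all mixed tumours lay above all Py117 tumours and within or beside the range of Py8119 tumours.

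Nbn had 7.84, 7.89, 7.74, 7.80 and 7.82 in mixed tumours, lower than Py117 tumours by 0.45 ± 0.11 (limma adjusted p = 0.00272). Xpa had 7.09, 6.98, 6.94, 7.14 and 7.07 in mixed tumours (-0.36 ± 0.11, limma adjusted p = 0.0151). The lowest Py117 tumour touched or entered the mixed range for both, and every mixed tumour was above every Py8119 tumour for Xpa.

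By route, mixed tumours exceeded Py117 tumours for 8 of 10 homologous recombination genes, 4 of 5 end joining genes, 4 of 5 signalling genes, 3 of 5 Fanconi genes and all 3 of Exo1, Blm and Wrn. Polq (0.22) and Msh6 (0.36) were not called. Atm had 8.36, 8.50, 8.73, 8.35 and 8.43 in mixed tumours, each above every Py117 tumour (0.55 ± 0.10, limma adjusted p = 0.000208). With the cell cycle mean in the fit, 3 genes were higher (Rad51b, Wrn and Xrcc4) and 3 lower (Nbn, Rad54l and Xpa), against 7.17% and 11.2% of all genes. Cell cycle genes again moved with the comparison, with 25 of 34 higher and 1 lower in mixed tumours. Leaving out 1 array gave 21 to 29 genes higher, and Bard1, Blm, H2ax, Mre11a, Palb2 and Rad50 lost their call in some of these fits.

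Host and epithelial markers also differed between mixed and Py117 tumours. All 9 fibroblast markers, 10 of 11 endothelial, 7 of 8 adipocyte, 4 of 9 T cell and 10 of 11 epithelial markers were lower in mixed tumours, and 8 of 11 macrophage markers were higher and 1 lower. The mean fibroblast signal was 7.998 to 8.80 in mixed tumours and 9.46 to 10.6 in Py117 tumours, the endothelial mean 6.92 to 7.05 and 7.63 to 8.34, and the macrophage mean 10.2 to 10.5 and 9.47 to 9.95. The adipocyte mean was 5.79 to 6.28 in mixed tumours and 5.95 to 8.70 in Py117 tumours, the T cell mean 6.22 to 6.87 and 6.44 to 7.67, and the epithelial mean 6.66 to 7.05 and 8.05 to 8.68. In mixed tumours 4 epithelial, 2 adipocyte and 3 of 4 B cell markers had a mean under background. The part of these cells in the repair differences was not tested.

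The next comparison set tumours against cultures of the same line. In both lines, 30 of 40 repair genes were lower in tumours and 0 higher, with a median of -0.64 in Py117 and -0.63 in Py8119. At an unadjusted p under 0.05, 0 repair genes were higher in either line, again without the share of all genes at that threshold. Over all genes 18.3% were lower and 12.4% higher in Py117, with a median of -0.09, and 20.9% were lower and 16.3% higher in Py8119, with a median of -0.05. Among the brighter 11090 genes, 30 of 39 repair genes were lower in Py117 and 29 in Py8119, against 30.1% and 31.9% of those genes. Tumours lay wholly below cultures for 30 genes in Py117 and 31 in Py8119, where 22.1% and 21.5% of all genes did. They lay wholly above for 0 genes in each line, against 13.4% and 16.7% of all genes.

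**Figure D4:**
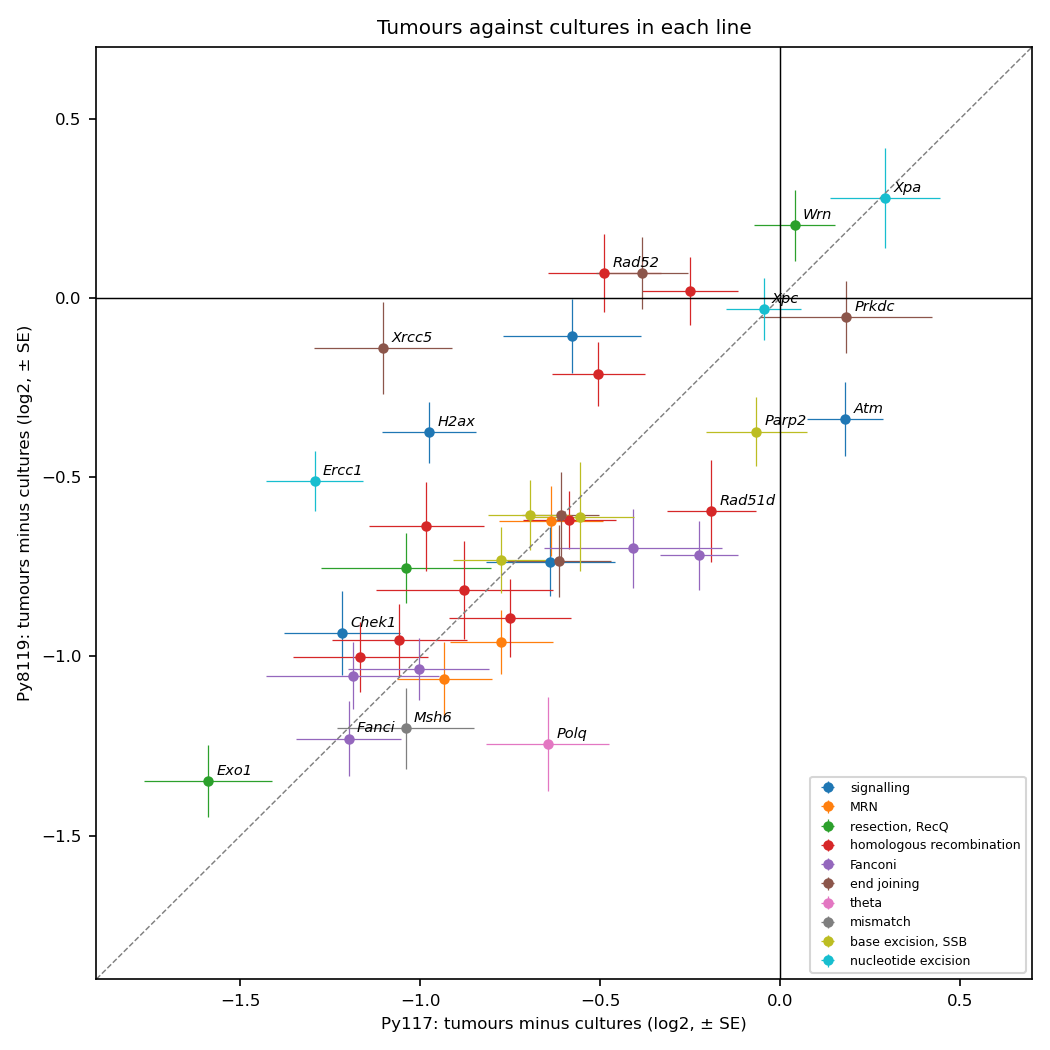
Each point is a repair gene, coloured by route, with the tumour minus culture difference in log2 signal of Py117 on the horizontal axis and of Py8119 on the vertical axis, each with its SE; the dashed line marks equal differences. Exo1 lies farthest out (-1.59 in Py117 and -1.35 in Py8119), and Xrcc5, Ercc1 and H2ax lie above the dashed line.

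The same 25 genes were lower in both lines, where 11% of all genes were. Another 5 were called in Py117 and not in Py8119 (Chek2, Palb2, Rad52, Xrcc4 and Xrcc5), against 6.51% of all genes, and 5 in Py8119 and not in Py117 (Atm, Rad51d, Fancc, Fancm and Parp2), against 9.38%. The remaining 5 (Wrn, Rad51b, Prkdc, Xpa and Xpc) were called in neither line. Exo1, the nuclease that extends resection and also serves mismatch repair, fell most. It had 8.22, 7.92, 7.71, 8.60 and 8.10 in Py117 tumours, against 9.78, 9.69 and 9.64 in Py117 cultures (3.01-fold lower, -1.59 ± 0.18, limma adjusted p = 7.09e-05). In Py8119 it had 8.62, 8.52, 8.51, 8.81 and 8.46 in tumours, against 9.86, 9.98 and 9.94 in cultures (2.54-fold lower, -1.35 ± 0.10, limma adjusted p = 5.18e-06). Tumours and cultures were far apart in both lines.

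Polq had 6.52, 6.30, 6.19, 6.56 and 6.02 in Py8119 tumours, against 7.61, 7.47 and 7.60 in Py8119 cultures (2.37-fold lower, -1.24 ± 0.13, limma adjusted p = 4.85e-05), and in Py117 the difference was -0.65 ± 0.17. Ercc1 had 7.17, 7.36, 7.06, 7.05 and 6.91 in Py117 tumours, against 8.24, 8.64 and 8.33 in Py117 cultures (2.45-fold lower, -1.29 ± 0.14, limma adjusted p = 4.46e-05), and in Py8119 the difference was -0.51 ± 0.08. No tumour reached a culture for either gene in either line.

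By route, the Fanconi genes had median differences of -1.005 in Py117 and -1.03 in Py8119, with 3 and 5 of 5 genes lower. All 3 of Mre11a, Rad50 and Nbn were lower in both lines (medians -0.77 and -0.96), as were 8 and 7 of 10 homologous recombination genes (medians -0.67 and -0.63), among them Brca1 (-1.06 and -0.95) and Bard1 (-1.17 and -1.003). Chek1 differed by -1.22 in Py117 and -0.93 in Py8119, and Msh6 by -1.04 and -1.20. The dimmer Atr probe set gave -0.02 in Py117 and 0.67 in Py8119, where it would have been called higher (limma adjusted p = 0.0285). The probe set used gave -0.64 and -0.74, and the counts above rest on it.

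Outside those routes the pattern was mixed. End joining had 4 of 5 genes lower in Py117 (median -0.61) and 2 of 5, Xrcc6 and Lig4, in Py8119 (median -0.14). Of the excision genes, Parp1, Xrcc1 and Ung were lower in both lines, while Xpa (0.29 and 0.28) and Xpc (-0.05 and -0.03) passed the test in neither. No test compared routes with each other.

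The cell cycle list fell along with them, with 33 of 34 genes lower in each line and medians of -1.17 in Py117 and -0.97 in Py8119, while host markers rose: 10 and 11 of 11 macrophage markers, 9 and 7 of 9 fibroblast markers and 10 and 9 of 11 endothelial markers were higher in Py117 and Py8119 tumours. Tumour and culture also differ in sample type, so host cells, division and growth conditions cannot be told apart in these differences. Leaving out 1 array gave 22 to 31 genes lower in Py117, where 8 genes (Atr, Brca2, Chek2, Palb2, Polq, Rad52, Ung and Xrcc4) lost their call in some fits, and 29 to 30 in Py8119, where Atm did.

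An interaction term then asked whether the tumour minus culture difference itself differed between the lines. It was called for 5 of 40 repair genes, 3 higher and 2 lower in Py8119. Over all genes 7.5% were higher and 5.99% lower (13.5% in either direction), so the share called was near that of all genes. Among the brighter 11090 genes, 3 of 39 repair genes were called higher and 1 lower, against 12.4% and 9.02% of those genes. Xrcc5 had the largest value (0.96 ± 0.24, limma adjusted p = 0.0121), with tumours lower than cultures by 1.10 in Py117 and a difference of -0.14 ± 0.13 in Py8119. Its cultures held 9.07, 9.14 and 8.99 in Py8119 and 8.82, 8.90 and 8.99 in Py117, so the lines touched in culture and separated in tumours.

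Ercc1 (0.78 ± 0.16, limma adjusted p = 0.00239) and H2ax (0.60 ± 0.15, limma adjusted p = 0.0131) also fell less in Py8119. H2ax, whose product marks breaks once phosphorylated, differed by -0.98 in Py117 and -0.38 in Py8119. Atm (-0.52 ± 0.14, limma adjusted p = 0.0197) ran the other way, with a difference of -0.34 in Py8119 and 0.18 ± 0.11 in Py117. Its values were 8.09, 8.10, 8.06, 8.43 and 8.20 in Py8119 tumours and 7.96, 7.73, 7.92, 7.999 and 8.02 in Py117 tumours, so the gap between the lines seen in culture was narrower there.

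Fancc had 5.86, 5.65, 5.94, 5.71 and 5.68 in Py8119 tumours, against 6.57, 6.41 and 6.48 in Py8119 cultures, and 5.52, 5.78, 5.57, 5.81 and 5.73 in Py117 tumours, against 5.94, 5.86 and 5.91 in Py117 cultures (interaction -0.49 ± 0.14, limma adjusted p = 0.0245). The tumour and Py117 culture values sit within 1 log2 unit of background (5.31). Calls for Atm and Fancc were lost in fits that left out 1 array (Atm without Py117 culture 3, adjusted p = 0.0557; Fancc without any of 4 cultures, up to 0.0655).

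The position of the genes that were lower in Py8119 was examined because Nbn and Xpa both lie on chromosome 4, a feature noticed after their values were seen. The 40 measured genes nearest to Xpa in RefSeq order, 20 on each side, had a median difference of -0.54 in culture, with 24 lower and 0 higher, and -0.29 in tumours, with 19 lower and 0 higher. Around Rad54l, the only other member on chromosome 4, the neighbours' median was -0.66 in culture, with 25 lower and 0 higher, and -0.42 in tumours. Around Nbn it was -0.13, with 13 lower and 3 higher. For the 4 genes with the largest positive culture differences, neighbours' medians were -0.04 (Rad51d), 0.23 (Fancd2), 0.16 (Rad51c) and 0.01 (Brca2, with 29 neighbours). Of these neighbours, 14 were higher and 1 lower in culture for Rad51c, and 14 and 4 for Fancd2. For Rad51d the counts were 5 and 2, and for Brca2 6 and 4. Over all genes, 14.5% were higher and 12.3% lower in culture.

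**Figure D5:**
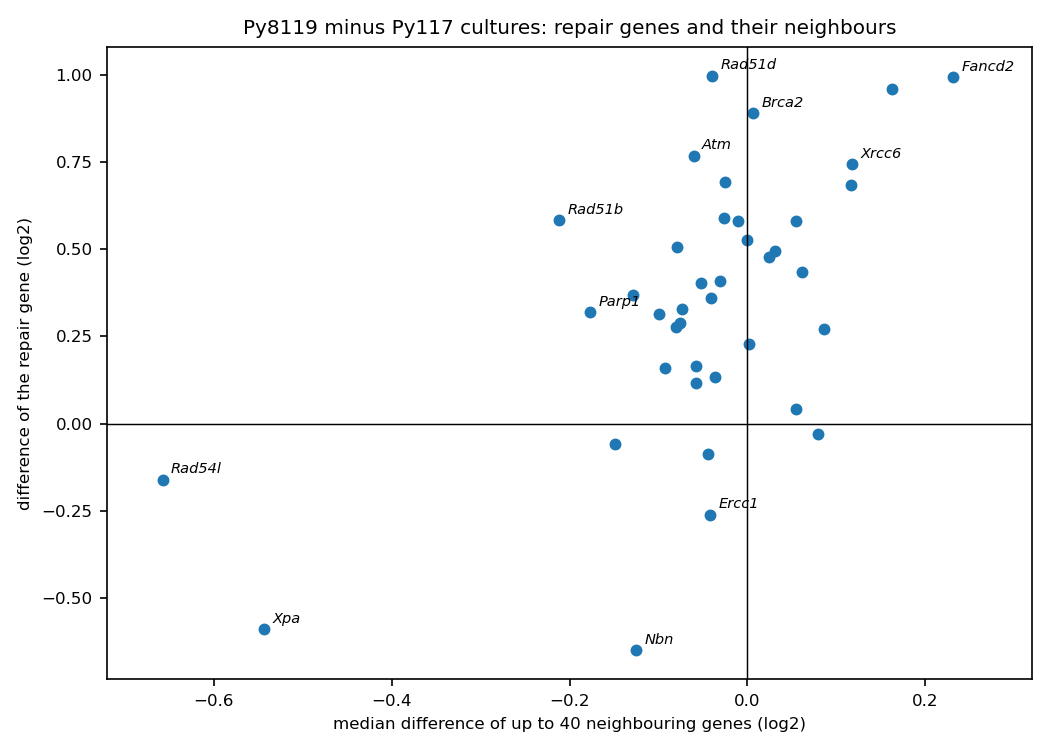
Each point is a repair gene, with the median Py8119 minus Py117 culture difference of up to 40 neighbouring genes on the horizontal axis and the gene's own difference on the vertical axis, both in log2 units. Xpa and Rad54l stand apart at the left (neighbour medians -0.54 and -0.66).

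Another 94 repair genes outside the list were measured, in the same routes and in translesion synthesis. In culture 42 were higher and 10 lower in Py8119 than in Py117, where 14.5% and 12.3% of all genes were. In tumours the counts were 48 and 6, against 21% and 16.5% of all genes. In mixed against Py117 tumours they were 45 and 8, against 19.2% and 16.9%. In tumours against cultures, 0 were higher and 49 lower in Py117, and 5 were higher and 58 lower in Py8119. Over all genes 12.4% were higher and 18.3% lower in Py117, and 16.3% and 20.9% in Py8119. The large subunit of the single-strand binding protein RPA, Rpa1, was higher by 1.17 ± 0.11 in Py8119 cultures and the small subunit Rpa3 by 1.58 ± 0.17 in Py8119 tumours. Rpa1, Rpa3 and Fen1 (below) each had 2 probe sets, and only the brighter of each was examined. Mad2l2, a subunit of polymerase zeta that also restrains resection, was higher by 1.11 in both settings.

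Among those that went the other way, Aptx, which clears failed ligations, was lower in Py8119 by 1.18 ± 0.12 in culture and 0.67 ± 0.08 in tumours, and Ercc5, the 3′ nuclease of nucleotide excision, by 0.96 and 1.09. Usp1, which removes ubiquitin from Fancd2, was lower by 0.87 in Py8119 tumours. Aptx was the 1 gene of the 94 called between mixed and Py8119 tumours (0.39 ± 0.08 higher in mixed tumours, limma adjusted p = 0.0144). Rpa3 also had a positive interaction (1.26 ± 0.25), as did the end joining polymerase Polm (1.28 ± 0.14) and the glycosylase Mutyh (1.00 ± 0.22). In tumours against cultures the largest falls were those of Rad18 (-1.39), Tipin (-1.34) and Gen1 (-1.33) in Py117 and of Clspn (-1.33), Fen1 (-1.23) and Gen1 (-1.17) in Py8119, where Ube2b (0.76), Rpa3 (0.70) and Paxx (0.50) were higher.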

How the data were processed

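RNA from 21 samples was hybridised to Affymetrix mouse whole-transcript arrays (WT PLUS assay), per the labels. The values are log2 signals that the authors deposited. The submitters' processing notes name RMA and limma with no version, and background correction and summarisation beyond that name are not given in the sources used here. Labels call the replicates biological and give no batch, so none was examined. Background signal and array number, not depth, limit precision.

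Of 41345 probe sets, 23521 had 1 gene symbol and gave 22180 genes. Differences were fitted with limma 3.58.1 (lmFit, eBayes) in R 4.3.3 and tested on simulated data. Cultures were fitted over 6 arrays, tumours over 15, each tumour and culture contrast within its line, and the interaction over the 16 unmixed arrays. Promoters were RefSeq's (GRCm38.p6), and figures used matplotlib 3.10.9 in Python 3.11.15. Replicate numbers were not used as pairs: correlations of same-numbered arrays' deviations ran from -0.23 to 0.26.

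The members and lists were chosen with earlier results of these data known. Values in every sample are given for called members with the largest differences of each comparison and the largest of each route. Alternatives covered normalization, centring, dim genes, probe set choice, prior, array weights, samples fitted, pairing, threshold, single arrays and a cell cycle covariate.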

Additional observations from a re-analysis of the deposited data

Results flagged for a closer look

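In 120 sets of 5 tumour values (40 genes in 3 tumour groups), 7 held a value apart from the other 4 by more than Dixon's criterion (0.71), a rate near the 1 in 20 that chance gives. Mixed tumour 3 was apart for Exo1 (8.27, others 8.61 to 8.71), Wrn (8.81, others 8.48 to 8.57) and Xrcc1 (7.60, others 7.89 to 7.96). Py117 tumour 3 was apart for Brca2 (5.75, others 6.69 to 7.04) and Msh6 (6.34, others 7.03 to 7.24), and Py117 tumour 4 for Chek1 (7.61, others 6.89 to 7.05). Py8119 tumour 1 was apart for Ung (6.18, others 6.49 to 6.56).

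The tumour minus culture difference differed between Py8119 and Py117, by the interaction term, for Xrcc5 (0.96), Ercc1 (0.78), H2ax (0.60), Fancc (-0.49) and Atm (-0.52). These calls, 3 higher and 2 lower of 40 repair genes, stood against 7.5% and 5.99% of all genes. Those of Atm and Fancc were lost in some fits with 1 array left out.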

How the results depend on the processing

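Over the alternatives, the 40 genes gave 5353 fitted values, of which 4909 had the call and direction reported, 190 lost their call and 89 gained one. A further 165 changed sign. Of these, 144 were called neither as reported nor under the alternative: 79 with 1 array left out, 22 with the cell cycle covariate, 19 with array medians centred, 14 with quantile normalization, 6 with array weights, 3 with the replicate block and 1 with probe sets averaged. The other 21, called in one or the other, all came from the cell cycle covariate. For Py8119 minus Py117 tumours these were Chek2 (-0.37), Exo1 (-0.36), Brca1 (-0.14), Brca2 (-0.18), Xrcc3 (-0.10), Fancb (-0.38), Fanci (-0.19), Fancm (-0.81), Prkdc (-0.30) and Parp1 (-0.19). For mixed minus Py117 tumours they were Atr (-0.087), Chek1 (-0.028), H2ax (-0.12), Mre11a (-0.13), Rad50 (-0.11), Exo1 (-0.27), Blm (-0.41), Brca1 (-0.051), Bard1 (-0.19), Fancb (-0.26) and Fanci (-0.15). That covariate left 3 genes higher and 5 lower for Py8119 against Py117 tumours and 3 higher for mixed against Py117 tumours, and the cause was not tested.

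At an adjusted p under 0.01, 15 genes were higher and 1 lower in Py8119 cultures, 1 was lower in mixed than in Py117 tumours, and the interaction kept 1 higher and 0 lower. The lower calls in culture also came to 1 with array medians centred. Quantile normalization gave 1 gene higher in Py8119 tumours than in cultures (Wrn, 0.28) and 5 higher for the interaction; leaving out genes below the median level gave 5 higher and 1 lower. With 1 array left out, the culture comparison gave 17 to 20 higher and 1 to 2 lower, Py8119 minus Py117 tumours 21 to 28 and 2 to 3, mixed minus Py117 21 to 29 and 2 to 3, mixed minus Py8119 0 and 0, tumours minus cultures 0 and 22 to 31 in Py117 and 0 to 1 and 29 to 30 in Py8119, and the interaction 3 to 4 and 0 to 3. The lone gene higher in Py8119 tumours was Xpa without Py8119 culture 3 and Wrn without Py8119 tumour 1; no lower interaction was called without Py117 culture 3.

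With the replicate number as a block, 20 genes were higher and 1 lower in Py8119 cultures, 24 and 3 in Py8119 tumours against Py117, 25 and 3 in mixed against Py117, 28 were lower in tumours of each line and the interaction gave 3 and 1. Centring array medians moved the median of all genes to 0.14 in culture, 0.11 in Py8119 against Py117 tumours, -0.25 in Py117 and -0.26 in Py8119 tumours against cultures, and the shares of all genes called higher and lower to 19.9% and 8.39%, 28.1% and 13.2%, 9.93% and 33.9%, and 10.6% and 40.8%; the repair genes' medians were 0.51, 0.54, -0.80 and -0.83.

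Limits: each line is 1 clone, 3 cultures a line leave small differences undetected, the probe set chosen decides the values of Atr, and RNA says nothing of protein or of the response to damage.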

Other observations

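Repair genes on chromosome 4 were counted apart from the rest. Of 11 such genes (3 members and 8 of the other repair genes), 7 were lower and 3 higher in Py8119 cultures, against 5 lower and 62 higher of 123 elsewhere. In tumours 5 of the 11 were lower and 3 higher, against 3 lower and 68 higher of 123 elsewhere. The lower genes in culture were Aptx, Fancg, Mutyh, Nbn, Rad23b, Usp1 and Xpa, and the higher were Clspn, Mad2l2 and Rpa2. Nbn and Xpa prompted the count and are among the lower genes in both settings, so the contrast was partly set by that choice. Of the rest, Aptx, Rad23b and Usp1 were lower and Clspn, Mad2l2 and Rpa2 higher in both settings. Among genes at or above the median level, with calls adjusted over all genes, 44% of 698 on chromosome 4 were lower in Py8119 cultures, against 17.1% of 10370 on the other chromosomes, and in tumours 39.4% against 21.4%. Other chromosomes were uneven too. Over all genes of a chromosome, 28.6% were lower in culture and 28.2% in tumours on chromosome 4. On chromosome 1 these shares were 19.1% and 25.4%. On chromosomes 8 and 15, 29.2% and 26.9% were higher in culture and 7.6% and 8.88% lower. These counts were made after the values were seen, and neighbouring genes are not independent. No test of the difference between chromosomes was made.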
